A study of Homo sapiens with 3 samples.

Results

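The genes described here are 34 genes of the p53 pathway, its feedback regulators and its transcriptional targets. They were chosen by gene symbol from a fixed list of names, and all 34 were found among the 22464 genes of the deposited expression table. RNA was sequenced from SK-Hep-1, an established human line from a liver adenocarcinoma, in which stable lines had been made by lentiviral infection. The sh1089-1 line and the sh1089-2 line each carry a different short hairpin RNA against the long noncoding RNA LINC01089, labelled as knockdown, and the shNC line carries a negative control hairpin. No further treatment is given in the labels, and all 3 groups share the SK-Hep-1 background and the viral integration. Whether each line is a clone or a pool of infected cells is not given in the sources used here. With 1 library in each group, no difference has a replicate behind it, no test between groups was possible, and no p-value is given. LINC01089 was not analysed here, so the labels were not checked against the targeted RNA.

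p53 is a transcription factor that is held at a low level by the ubiquitin ligase MDM2 and its partner MDM4, and that accumulates after DNA damage and other stress. It binds response elements near its targets and switches on genes of cell cycle arrest, DNA repair, apoptosis and metabolism, together with genes that feed back on p53 itself. It also lowers many cell division genes indirectly, through the inhibitor p21 and the RB family and DREAM repressor complexes. p53 is controlled mainly at the protein level, which RNA sequencing does not measure.

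The library totals, worked out from the deposited values, were 9528312 reads in sh1089-1, 8359832 in sh1089-2 and 10698480 in shNC. Mitochondrial genes took 4.69%, 5.10% and 5.24% of them. The 34 genes took 0.330% of the reads in sh1089-1, 0.365% in sh1089-2 and 0.401% in shNC. The tissue label is liver, but of 7 hepatocyte markers analysed APOA1, TTR and FGB were listed at 0 in every library, and SERPINA1 alone passed 1 FPKM on average (5.91, 8.0 and 4.69 FPKM). FPKM is the number of fragments per kilobase of gene, scaled to the size of the library. Of 9 endothelial markers, ROBO4 alone passed it, with 1.82, 1.55 and 1.30 FPKM. The 6 immune markers analysed summed to 2.51, 2.37 and 2.56 FPKM, and the 8 mesenchymal markers, led by VIM, to 1440, 1808 and 1272 FPKM. The mesenchymal markers did not move together. Of the 6 that passed 1 FPKM on average, 4 lay below shNC and 2 above it in sh1089-1. In sh1089-2, 2 lay below and 4 above. The part of these shifts in the results below was not tested. In bulk RNA, fewer cells that express a gene and less of its RNA per cell cannot be told apart.

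Some of these genes hold a p53 half-site, the palindromic motif bound by a pair of p53 subunits, next to their start. RefSeq promoter windows (250 bases before to 50 bases after a start, GRCh38.p14) were at hand for 29 of the 34 genes, in 42 windows. An exact half-site lay in a window of 8 of the 29 genes (27.6%), against 8.06% of all 27305 genes in that table and 7.28% of those that passed the expression filter. Genes differ in how many windows they have. The stretches around these sites are shown because 2 such half-sites make up a p53 response element, with the half-site in capitals, 5′ to 3′ on the gene's strand.

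DDB2 (chr11:47214979-47214999, plus strand): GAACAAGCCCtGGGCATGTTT

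FAS (chr10:88991294-88991333, plus strand): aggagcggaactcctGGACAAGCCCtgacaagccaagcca

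AEN (chr15:88621291-88621330, plus strand): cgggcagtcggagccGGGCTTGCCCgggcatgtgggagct

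EI24 (chr11:125569452-125569476, plus strand): ggccccgtgcggcccGGGCATGCCC

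SESN1 (chr6:109009013-109009052, minus strand): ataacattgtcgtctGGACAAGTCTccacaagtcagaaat

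RPS27L (chr15:63157512-63157551, minus strand): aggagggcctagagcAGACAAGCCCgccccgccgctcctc

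PLK2 (chr5:58460194-58460233, minus strand): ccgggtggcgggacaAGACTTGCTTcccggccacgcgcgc

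FDXR (chr17:74872995-74873020, minus strand): ggcccgggcaggagcGGGCTTGCCCt

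DDB2 was the only one of the 29 genes with a full site, that is 2 half-sites at most 13 bases apart, and 0.0366% of all genes in the table had one. Its half-sites begin 6 and 17 bases after the annotated start. The other 7 half-sites lie upstream of an annotated start, between 10 bases (EI24) and 132 bases (PLK2) away. The genes with a half-site lay on both sides of the control: DDB2, FAS, AEN and EI24 were above shNC in both hairpin libraries, SESN1, RPS27L and FDXR were below it, and PLK2 lay on either side, low in sh1089-1 and high in sh1089-2. A match is a description of the letters and says nothing on binding in these cells. The GC box GGGCGG, read on both strands, was in a window of 25 of the 29 genes (86.2%), against 79.5% of genes that passed the expression filter. The CHR box TTTGAA, an element of cell cycle genes, was found for MDM4, FAS, ZMAT3 and DDB2 (13.8%, against 12.8%), and the E2F box TTTCGCGC or TTTGGCGC for MDM2 (3.45%, against 2.53%).

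**Figure D1:**
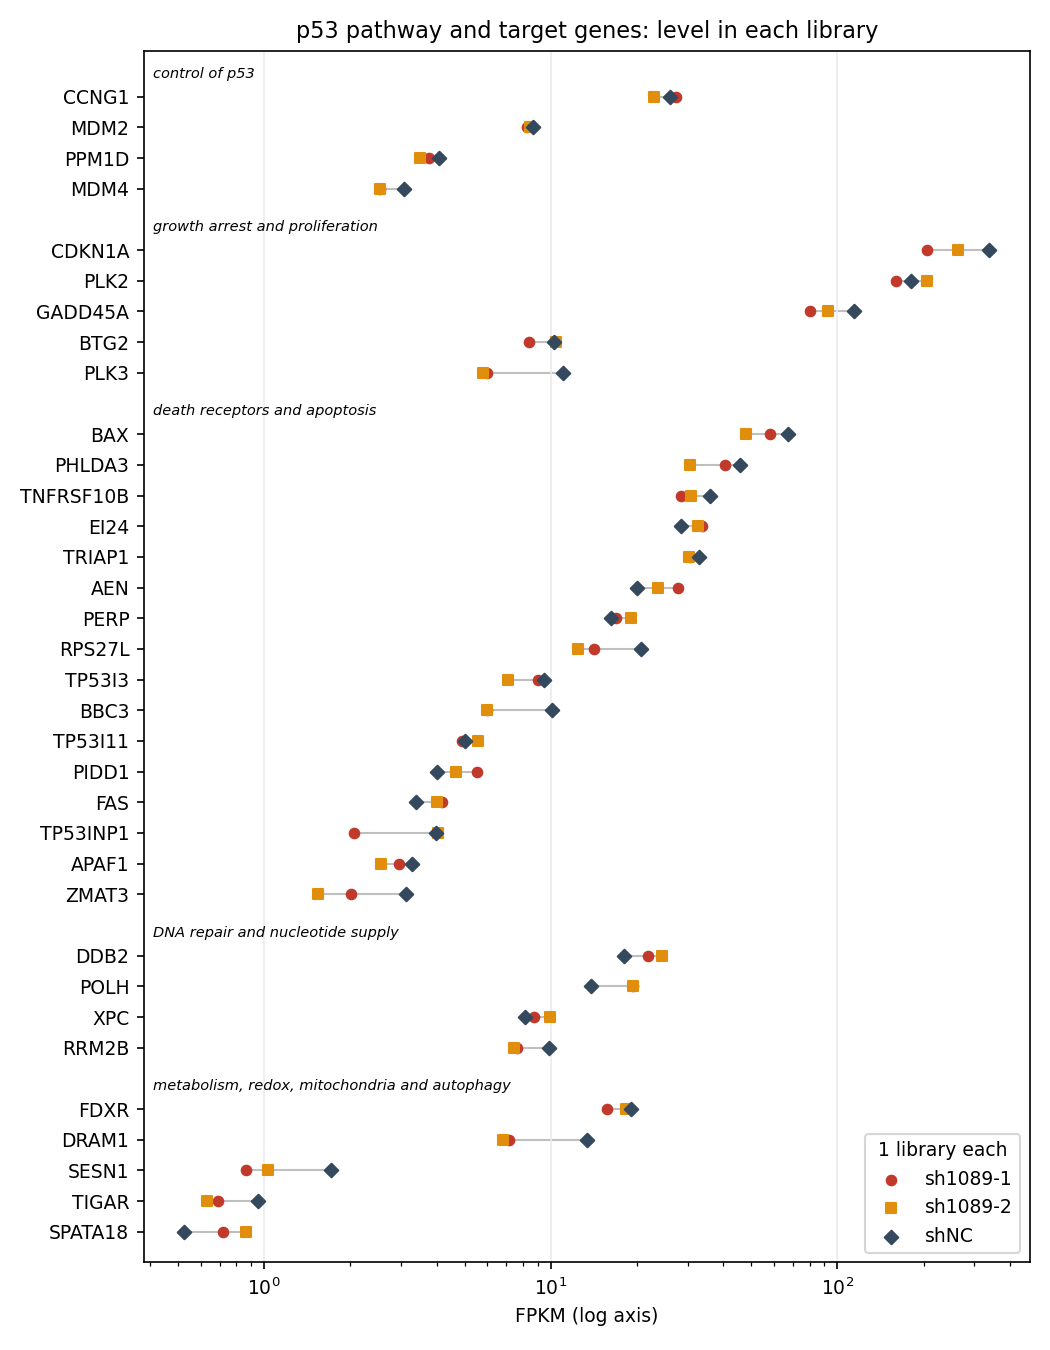
FPKM of the 34 genes (log axis) in sh1089-1, sh1089-2 and shNC, grouped by role, 1 point per library with a line from the lowest to the highest. CDKN1A leads with 206 to 339 FPKM, and SPATA18 and TIGAR lie below 1 FPKM in every library.

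The 34 genes spanned a wide range of levels. CDKN1A was the highest by mean FPKM, followed by PLK2, GADD45A and BAX, and the ranges of these 4 over the 3 libraries did not overlap with one another or with the gene next in order, although the lowest value of CDKN1A and the highest of PLK2 nearly met at 206 FPKM. Further down the order the levels ran together: 26 of the 33 pairs of neighbours overlapped. SESN1, TIGAR and SPATA18 were the lowest. The scale is per length. The length behind the values equalled the summed exons of GENCODE 29 for 17 of the 34 genes, and a sum over all exons understates a gene whose main transcript uses few of them.

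Against shNC, more of these genes were lower than higher in the hairpin libraries, by modest amounts. A gene was called higher or lower where log2(FPKM + 1) differed by at least 1.5-fold, if its FPKM averaged 1 or more over the 3 libraries. TIGAR and SPATA18 missed that filter, and 32 of the 34 genes passed it. In sh1089-1, 5 of the 32 were lower (CDKN1A, BBC3, PLK3, TP53INP1 and DRAM1), or 15.6%, against 5.83% of all 11198 genes, and 0 were higher, against 5.27%. In sh1089-2, 5 were lower as well (BBC3, ZMAT3, PLK3, RPS27L and DRAM1), against 5.63% of all genes, and 0 were higher, against 4.89%. Both comparisons use the same shNC library. BBC3, PLK3 and DRAM1 were lower in both, 9.38% of the 32 against 2.79% of all genes, and 0 were higher in both, against 3.08%. An earlier analysis of these libraries had already called a p53 target list lower, with GDF15 and BBC3 in it, so the direction here is no independent support for that call.

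The counts were also taken at other thresholds. At 2-fold, 0 of the 32 genes were lower or higher in sh1089-1 (1.51% and 1.38% of all genes), in sh1089-2 (1.61% and 1.63%) or in both (0.741% and 0.723%). At a log2 difference of 0.32, 11 were lower and 3 higher in sh1089-1, against 18% and 15% of all genes. There, 11 were lower and 2 higher in sh1089-2, against 17.6% and 13.2%. At that threshold 8 were lower in both (CDKN1A, BBC3, SESN1, ZMAT3, RRM2B, PLK3, RPS27L and DRAM1), against 9.92%, and POLH was the 1 gene higher in both, against 8.15%. With a pseudocount of 0.1 at 1.5-fold, SESN1 and ZMAT3 joined the genes lower in both, making 5 (4.69% of all genes), while 7 were lower in sh1089-1 (9.75%) and 6 in sh1089-2 (9.03%). Among protein-coding genes with 100 reads or more the counts of members were as before, against 4.36% of such genes lower in sh1089-1, 4% in sh1089-2 and 2% in both.

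The median difference of log2(FPKM + 1) was −0.17 in sh1089-1 (range −0.81 to 0.46) and −0.18 in sh1089-2 (range −0.88 to 0.46), beside −0.03 and −0.04 over all genes that passed the filter. In sh1089-1, 23 of the 32 genes lay below shNC, and in sh1089-2 20 did, against 53.6% and 55.1% of all genes. There were 19 below shNC in both (59.4% against 42.3% of all genes), 8 above it in both (25% against 33.3%) and 5 on opposite sides. The 8 above shNC were FAS, XPC, AEN, DDB2, POLH, PERP, EI24 and PIDD1.

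**Figure D2:**
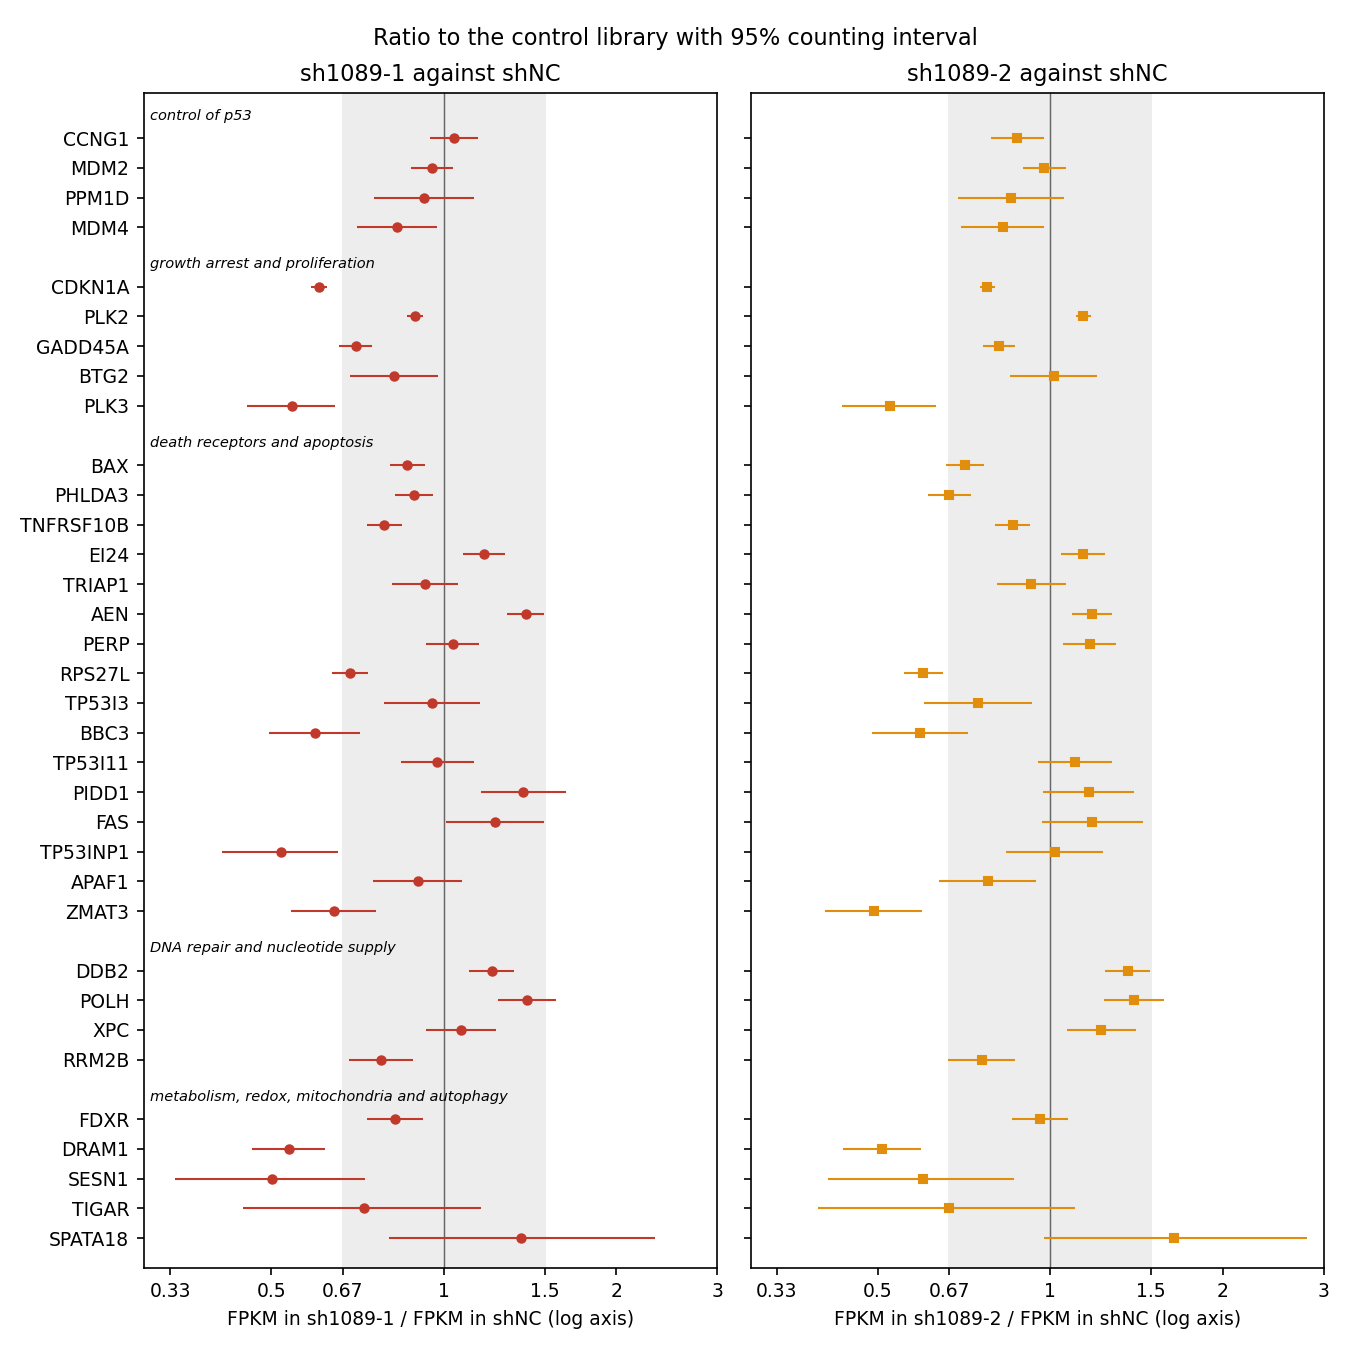
Ratio of FPKM in sh1089-1 (left) and sh1089-2 (right) to shNC on a log axis, with 95% Clopper-Pearson intervals from the reads, which cover counting error only. The grey band marks ratios within 1.5-fold; PLK3, BBC3, DRAM1, ZMAT3 and SESN1 lie below it in both panels by plain ratio, and POLH is the highest gene past the filter in both.

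The genes that control p53 all differed from shNC by less than 1.5-fold. MDM2 (chromosome 12, 68808176 to 68850686, plus strand), the ligase that p53 itself induces, had 8.25 FPKM in sh1089-1, 8.44 in sh1089-2 and 8.65 in shNC. The ratio to shNC was 0.954 in sh1089-1 (95% counting interval 0.877 to 1.04) and 0.976 in sh1089-2 (0.895 to 1.06), so a difference beyond counting error was not detectable for this feedback gene at 1044, 937 and 1229 reads. MDM4, the MDM2 relative that blocks p53 activity, had 2.55, 2.53 and 3.07 FPKM in sh1089-1, sh1089-2 and shNC, with ratios of 0.830 (0.706 to 0.975) and 0.826 (0.698 to 0.977). PPM1D, the phosphatase WIP1 that reverses p53-activating phosphorylation, had 3.77, 3.49 and 4.08 FPKM. Neither was called, and the counting intervals of PPM1D included 1, at 0.755 to 1.13 in sh1089-1 and 0.689 to 1.06 for sh1089-2. CCNG1, which encodes cyclin G1 and brings a phosphatase to MDM2, had 27.3, 22.9 and 26.1 FPKM, with the hairpin libraries on either side of shNC. The 4 genes had medians of −0.08 in sh1089-1 and −0.18 in sh1089-2.

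Genes of growth arrest held the 3 highest levels, and 2 of the 5 were called lower in sh1089-1 and 1 in sh1089-2, against 5.83% and 5.63% of all genes. CDKN1A (chromosome 6, 36676460 to 36687339, plus strand) encodes p21, the cyclin-dependent kinase inhibitor that carries out p53-dependent arrest. It had 206 FPKM in sh1089-1, 263 in sh1089-2 and 339 in shNC. The hairpin libraries were both below shNC and stood apart from each other, sh1089-1 being the lowest. CDKN1A was 1.65-fold lower than shNC in sh1089-1 (1.60 to 1.70) and in sh1089-2 the ratio was 0.776 (0.753 to 0.800), on 5983, 6714 and 11069 reads. Rescaling to TPM, which sets each library to the same sum, moved its log2 difference in sh1089-2 from −0.36 to −0.29. That is beyond the counting interval. CDKN1A gave 19.0% of the reads of the 34 genes in sh1089-1, 22.0% in sh1089-2 and 25.8% in shNC, more than any other of them in shNC. In the hairpin libraries PLK2 gave more reads, 7116 in sh1089-1 and 7997 in sh1089-2.

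PLK3 (chromosome 1, 44800225 to 44805990, plus strand), a stress-responsive polo-like kinase, had 5.99 FPKM in sh1089-1, 5.79 in sh1089-2 and 11.0 in shNC. The hairpin libraries lay close together, at 1.84-fold (1.55 to 2.20) and 1.91-fold (1.58 to 2.31) below shNC. PLK2, a related kinase, lay on either side of shNC: it had 161 FPKM in sh1089-1, 206 in sh1089-2 and 180.4 in shNC. GADD45A, a stress-induced regulator of growth arrest and MAP kinase signalling, had 80.1, 92.7 and 114 FPKM in sh1089-1, sh1089-2 and shNC, lower in both hairpin libraries, by 1.42-fold (1.33 to 1.52) and 1.23-fold (1.15 to 1.31). BTG2, an antiproliferative cofactor of mRNA deadenylation, had 8.41, 10.4 and 10.3 FPKM, low in sh1089-1 alone. PLK3 is overlapped on the other strand by TCTEX1D4, with 1.24, 2.04 and 2.33 FPKM, and it is not stated whether counting used the strand.

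The apoptosis genes were split, with one BH3-only gene called in both. BBC3 (chromosome 19, 47220822 to 47232766, minus strand) encodes PUMA, which frees BAX and BAK to permeabilise mitochondria. It had 6.01 FPKM in sh1089-1, 5.98 in sh1089-2 and 10.1 in shNC, on 182, 159 and 343 reads. The hairpin libraries were nearly equal, 1.68-fold (1.40 to 2.02) and 1.69-fold (1.39 to 2.05) below shNC. MIR3190, a microRNA gene that overlaps BBC3 on the other strand, had 3.94, 0 and 11.7 FPKM in sh1089-1, sh1089-2 and shNC. FPKM is scaled to length, so these values of a very short gene rest on few reads and are not comparable with those of BBC3. BAX (chromosome 19, 48954815 to 48961798, plus strand), the pore-forming effector, had 58.3 FPKM in sh1089-1, 47.9 in sh1089-2 and 67.5 in shNC. Both hairpin libraries were below shNC, by 1.16-fold (1.08 to 1.24) and 1.41-fold (1.30 to 1.52), within the 1.5-fold bound. APAF1, the scaffold of the apoptosome, had 2.96, 2.56 and 3.29 FPKM in sh1089-1, sh1089-2 and shNC. PIDD1, a death-domain scaffold that activates caspase-2, went the other way, with 5.52, 4.68 and 4.01 FPKM. RPLP2, a ribosomal protein gene at 308, 275 and 384 FPKM, overlaps PIDD1 on the other strand, so the value of PIDD1 is uncertain.

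The death receptors were not called in either hairpin library. FAS, the receptor of the Fas ligand, had 4.16, 4.01 and 3.38 FPKM in sh1089-1, sh1089-2 and shNC, and TNFRSF10B, a receptor of TRAIL, had 28.4, 30.9 and 36.0 FPKM. The ratio of FAS to shNC was 1.23 in sh1089-1 (1.01 to 1.49) and 1.18 in sh1089-2 (0.966 to 1.45), so the second was not distinguishable from 1 at this depth. TNFRSF10B lay below shNC, with ratios of 0.788 in sh1089-1 (0.734 to 0.845) and 0.859 in sh1089-2 (0.800 to 0.923). Its counting intervals were clear of 1 in both. FAS is overlapped on the other strand by ACTA2 at 4.16, 4.46 and 4.46 FPKM.

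TP53INP1 (chromosome 8, 94925972 to 94949411, minus strand), a cofactor of p53 in apoptosis and a factor of autophagy, was low in sh1089-1 alone. It had 2.06 FPKM in sh1089-1, 4.05 in sh1089-2 and 3.98 in shNC. It was 1.93-fold lower than shNC in sh1089-1 (1.53 to 2.43), while the ratio in sh1089-2 was 1.02 (0.838 to 1.24). NDUFAF6, which overlaps it on the other strand, had 1.79, 1.53 and 1.82 FPKM.

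ZMAT3 and RPS27L were lower in both hairpin libraries and further so in sh1089-2. ZMAT3 (chromosome 3, 179017223 to 179072279, minus strand), an RNA-binding zinc finger protein, had 2.02 FPKM in sh1089-1, 1.55 in sh1089-2 and 3.14 in shNC. As plain ratios it was 1.56-fold (1.31 to 1.85) and 2.03-fold (1.67 to 2.47) below shNC, and the pseudocount of 1 brings the first of these under the bound. RPS27L (chromosome 15, 63125872 to 63158021, minus strand), a p53-induced relative of ribosomal protein S27, had 14.2 FPKM in sh1089-1, 12.4 in sh1089-2 and 20.6 in shNC. It was 1.46-fold (1.35 to 1.57) and 1.66-fold (1.54 to 1.80) below shNC. Its close relative RPS27 could share reads with it, and LACTB on the other strand, at 12.1, 9.69 and 18.1 FPKM, overlaps it, so these values are uncertain.

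PHLDA3, an inhibitor of the kinase AKT, fell just short of the bound in sh1089-2, with 40.6 FPKM in sh1089-1, 30.5 in sh1089-2 and 45.8 in shNC, or 1.13-fold (1.05 to 1.22) and 1.5-fold (1.38 to 1.64) lower. TP53I3, a quinone oxidoreductase, was also lowest in sh1089-2, with 9.03, 7.09 and 9.46 FPKM in sh1089-1, sh1089-2 and shNC. AEN, a nuclease induced in apoptosis, was above shNC in both, with 27.8, 23.6 and 20.0 FPKM. The remaining genes of this role moved little: EI24, a membrane protein of the endoplasmic reticulum, had 33.6, 32.6 and 28.6 FPKM, and PERP, a membrane protein of desmosomes, had 16.9, 19.0 and 16.3. TRIAP1, a mitochondrial protein that restrains apoptosis, had 30.5, 30.4 and 32.9 FPKM, and TP53I11 had 4.90, 5.55 and 5.03. Over the 16 genes of this role the medians were −0.11 in sh1089-1 and −0.16 in sh1089-2. Of them, 9 lay below shNC in both and 5 above it in both, against 42.3% and 33.3% of all genes.

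Of the 4 DNA repair genes, 3 lay above shNC in both hairpin libraries, against 33.3% of all genes, and none passed 1.5-fold. POLH (chromosome 6, 43576150 to 43615660, plus strand), the polymerase eta that copies past ultraviolet damage, had 19.3 FPKM in sh1089-1, 19.3 in sh1089-2 and 13.8 in shNC. It was 1.40-fold higher in both (1.24 to 1.57 and 1.24 to 1.58). DDB2 (chromosome 11, 47214465 to 47239240, plus strand), which recognises ultraviolet lesions, had 21.8 FPKM in sh1089-1, 24.5 in sh1089-2 and 18.0 in shNC, or 1.21-fold and 1.36-fold higher. For both genes the hairpin libraries lay above shNC with counting intervals clear of 1. XPC, the partner of DDB2 in lesion recognition, had 8.71, 9.97 and 8.12 FPKM in sh1089-1, sh1089-2 and shNC, and its interval in sh1089-1 included 1 (ratio 1.07, 0.932 to 1.23). RRM2B, the p53-inducible subunit of ribonucleotide reductase, was the one below shNC, with 7.64, 7.46 and 9.82 FPKM. POLH is overlapped by GTPBP2 (15.7, 16.5 and 18.0 FPKM) and XPC by LSM3 (10.2, 8.44 and 8.18 FPKM), each on the other strand.

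In the group of metabolism, mitochondria and autophagy, DRAM1 had the largest difference of log2(FPKM + 1) of all 32 genes. By plain ratio SESN1 and TP53INP1 differed more in sh1089-1, and ZMAT3 in sh1089-2. DRAM1 (chromosome 12, 101877351 to 102012130, plus strand) encodes a lysosomal membrane protein needed for p53-induced autophagy. It had 7.17 FPKM in sh1089-1, 6.80 in sh1089-2 and 13.4 in shNC, on 269, 224 and 563 reads. The hairpin libraries were alike, at 1.86-fold (1.61 to 2.16) and 1.96-fold (1.68 to 2.30) below shNC. SESN1, a stress-induced inhibitor of the growth kinase mTORC1, had 0.861 FPKM in sh1089-1, 1.03 in sh1089-2 and 1.72 in shNC. It was 1.99-fold (1.37 to 2.94) and 1.67-fold (1.16 to 2.45) below shNC as plain ratios, on 42, 44 and 94 reads, and within the bound with the pseudocount. FDXR, ferredoxin reductase of mitochondria, had 15.7, 18.3 and 19.1 FPKM in sh1089-1, sh1089-2 and shNC, all within 1.5-fold.

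TIGAR and SPATA18 were too low for a difference to be detectable. TIGAR, a fructose bisphosphatase that slows glycolysis, had 31 reads in sh1089-1, 25 in sh1089-2 and 48 in shNC. SPATA18, also called Mieap, a protein of mitochondrial quality control, had 34, 36 and 28 reads. The counting intervals of their ratios to shNC all included 1.

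The hairpin lines were then compared with each other, without shNC. Of the 32 genes, TP53INP1 was higher in sh1089-2 than in sh1089-1, 1.96-fold by plain ratio (1.54 to 2.50), and it made 3.12% of the genes against 2.47% of all genes. None was lower, against 2.3% of all genes. At 2-fold 0 were higher or lower (0.839% and 0.884%), and at a log2 difference of 0.32, 3 were higher and 1 lower (9.45% and 10.1%). Below 0 lay 18 of the 32 genes, against 52.1% of all genes. The median was −0.01, beside −0.01 over all genes. Inside the 1.5-fold bound, CDKN1A was 1.28-fold (1.24 to 1.32) and PLK2 1.28-fold (1.24 to 1.32) higher in sh1089-2 than in sh1089-1, and PHLDA3 was 1.33-fold lower (1.22 to 1.46). The genes called lower against shNC in both, PLK3, BBC3 and DRAM1, differed little here, with ratios of 0.966 (0.778 to 1.20), 0.996 (0.800 to 1.24) and 0.949 (0.791 to 1.14). Choosing genes that are low in both hairpin libraries favours genes alike in them, so this closeness is no independent finding.

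**Figure D3:**
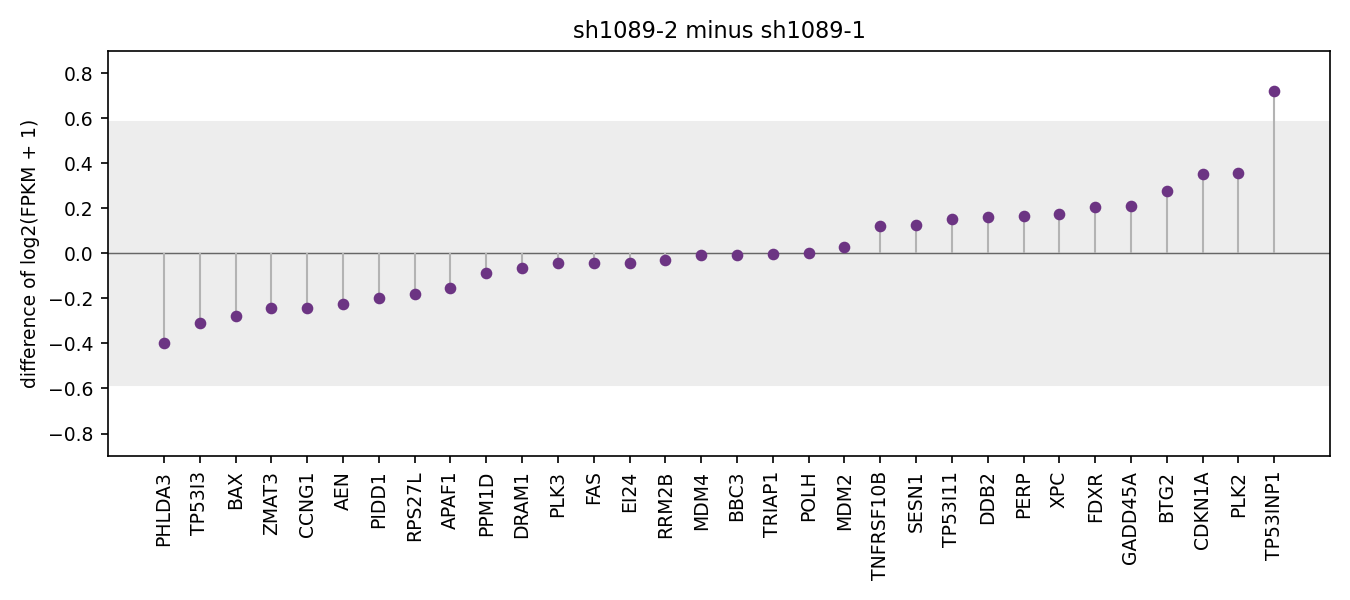
Difference of log2(FPKM + 1) between sh1089-2 and sh1089-1 for the 32 genes past the filter, in order of size, 1 point per gene. The grey band marks differences within 1.5-fold; TP53INP1 at 0.72 is the one gene outside it, and PHLDA3 at −0.40 is the lowest.

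Relatives of p53 and proteins that act on it were examined as a list of 29, of which 26 passed the filter. In the list, 1 gene was higher in both hairpin libraries and 1 lower in both, near the shares of all genes (3.08% higher and 2.79% lower). TP73, a p53 relative that is also an E2F target, had 2.08 FPKM in sh1089-1, 1.34 in sh1089-2 and 0.470 in shNC, on 134, 76 and 34 reads. It passed the filter only through the hairpin libraries, where it is high. CABLES1, a linker of cyclin-dependent kinases that also binds p53, had 3.04, 2.32 and 5.20 FPKM. The genes of this list with the highest levels were RPL11 (324, 287 and 335 FPKM) and RPL5 (284, 289 and 323 FPKM), ribosomal proteins that can bind MDM2. TP63 and CDKN2A were listed at 0 in all 3 libraries. The medians of the list were 0.03 in sh1089-1 and −0.07 in sh1089-2.

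A list of 64 further p53 targets held 53 genes past the filter, of which 3 were lower and 1 higher in each hairpin library. For the genes called lower, that is near the share of all genes (5.83% in sh1089-1 and 5.63% in sh1089-2). Of all genes, 5.27% and 4.89% were called higher. The medians were −0.13 in sh1089-1 and −0.06 in sh1089-2, which became 0.01 in sh1089-2 after rescaling to TPM. Of the 53 genes, 26 lay below shNC in both and 8 above it in both, against 42.3% and 33.3% of all genes. The other 19 lay on opposite sides, while 2730 of all 11198 genes were in neither group. GDF15, a secreted stress factor that other stress pathways also induce, had 145 FPKM in sh1089-1, 128 in sh1089-2 and 687 in shNC. IGFBP3, which binds insulin-like growth factors, had 57.8, 65.6 and 111 FPKM, and these were the 2 genes lower in both. PMAIP1, the BH3-only protein NOXA, was the one higher in both, with 20.8, 18.3 and 11.4 FPKM, opposite in direction to BBC3. GPX1, a glutathione peroxidase with a high level in this list, had 311, 264 and 275 FPKM in sh1089-1, sh1089-2 and shNC.

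Genes that p53 can lower through p21 and DREAM stood well above shNC. This list was chosen with earlier results of these data known, so its direction is no independent finding. All 27 of the 28 that passed the filter were above it in both hairpin libraries, and 20 were called higher in both, against 33.3% of all genes above it and 3.08% called higher in both. The medians were 0.89 in sh1089-1 and 0.88 in sh1089-2. PLK1, a mitotic kinase, had 33.8 FPKM in sh1089-1, 34.0 in sh1089-2 and 11.3 in shNC. MYBL2, a Myb-family transcription factor, had 98.9, 76.4 and 30.2 FPKM, and CCNB1, cyclin B1, had 102, 125 and 46.1. KIF20A, BIRC5, CDC25A, HMMR, FOXM1, CCNB2, MCM5, AURKA and LMNB1, which serve mitosis, DNA replication and the nuclear lamina, were also called higher in both. The part of these genes in the differences of the p53 targets was not tested.

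**Figure D4:**
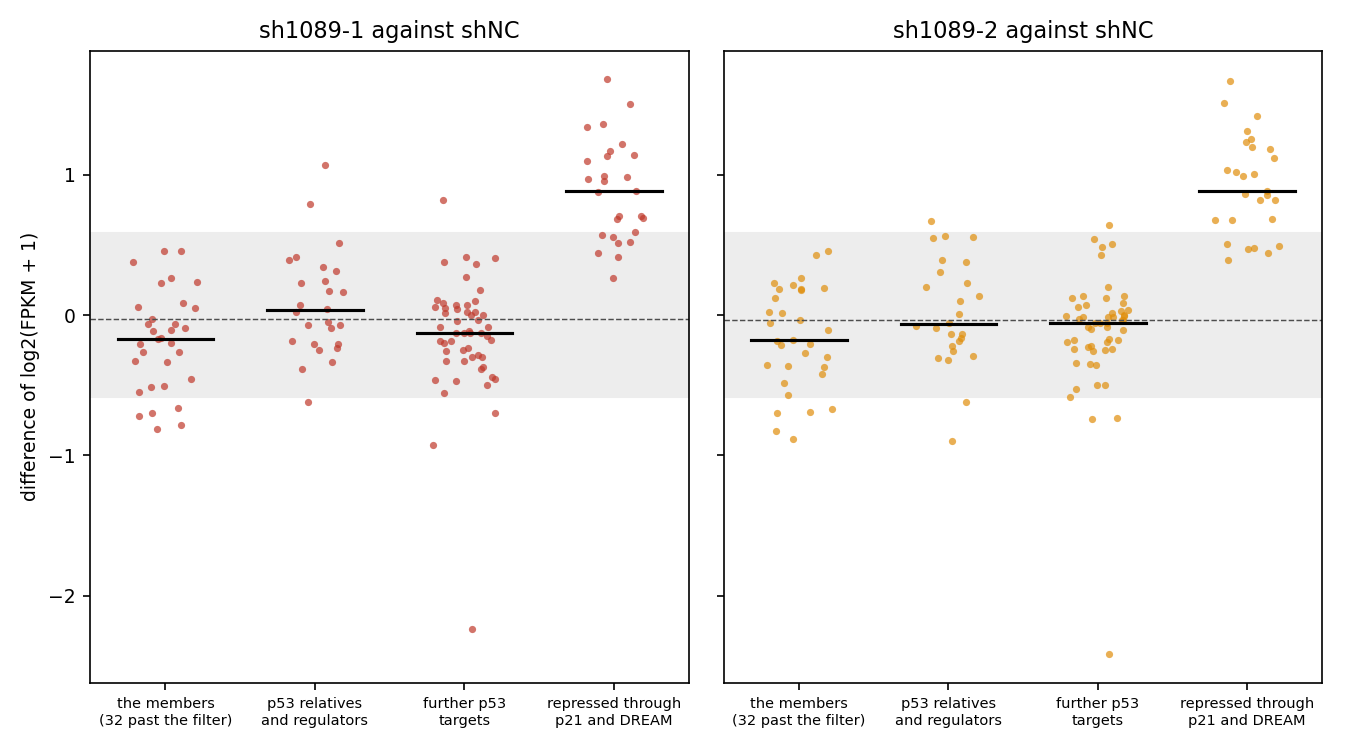
Difference of log2(FPKM + 1) from shNC in sh1089-1 (left) and sh1089-2 (right) for genes past the filter in 4 lists, 1 point per gene, with the list median as a bar. The dashed line is the median of all genes and the grey band 1.5-fold; the genes repressed through p21 and DREAM have medians of 0.89 and 0.88, and the members −0.17 and −0.18.

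The position of the genes on the chromosomes was also examined. For each of the 32 genes the median difference of the 50 nearest expressed genes was taken. These medians lay between −0.18 and 0.09 in sh1089-1 and between −0.20 and 0.15 in sh1089-2. For DRAM1 they were −0.03 and −0.04, and for CDKN1A −0.05 and −0.06, against −0.81 and −0.88 for DRAM1 itself and −0.72 and −0.36 for CDKN1A itself. Not every gene below shNC stood so far from its neighbours. PPM1D had −0.09 and −0.18, beside −0.17 and −0.17 for its neighbours. MDM2 had −0.06 and −0.03, beside −0.07 and −0.15. In sh1089-1, MDM4 had −0.20 beside −0.16, and PHLDA3 −0.17 beside −0.15. The part of position in these differences was not tested. TP53INP1 on chromosome 8 had neighbours at −0.17 and −0.20, and PERP on chromosome 6 at −0.16 and −0.12.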

How the data were processed

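RNA from 3 SK-Hep-1 lines was measured by sequencing, 1 library per group. Per the labels' protocols, mRNA was enriched from Trizol-extracted total RNA and the libraries keep strand. The deposited values are FPKM computed by the authors; FastQC and StringTie, with build GRCh38, stand in the submitters' processing notes. For the aligner, the annotation release and the strand setting, the sources used here state nothing.

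Symbols came from the gene name table for 22375 of 22464 identifiers, and coordinates and exon lengths from GENCODE 29 (GRCh38). Whole reads and library totals were worked out from the step between FPKM values: for each gene a length near the GENCODE 29 exon length was sought that gave whole reads in all 3 libraries, which was found for 19182 of 19204 genes above 0 and for all 34 members. From these reads came the 95% Clopper-Pearson interval of each ratio, and 1 alternative filter. Reads carry no molecular identifiers, so intervals cover counting error only. Where 0 reads were counted, 3 reads set the upper limit, which is 0.315 RPM in sh1089-1, 0.359 in sh1089-2 and 0.280 in shNC.

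Differences are on the log2(FPKM + 1) scale, which understates low genes; genes averaging 1 FPKM or more were used and called at 1.5-fold. The recovery and the calls were checked on simulated data with counting error only and planted changes of 2-fold or more. That check does not cover smaller planted changes or spread between lines. The members and lists were chosen with earlier results of these data known. Every member is named; full values are given for those past 1.5-fold in both hairpin libraries and for the 12 with the largest mean difference, with CDKN1A, MDM2, BAX and BBC3 always. Some genes are not reported here. Of other lists, genes past 1.5-fold in both (up to 12) and the 2 highest were eligible; of the 12 such genes of the p21 and DREAM list, 3 have their values printed. Analyses used Python 3.11.15, pandas 2.3.3, scipy 1.17.1 and matplotlib 3.10.9. Alternatives were another pseudocount, filters, scalings and thresholds.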

Additional observations from a re-analysis of the deposited data

Results flagged for a closer look

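PLK2, a stress-induced polo-like kinase, lay on opposite sides of shNC in the hairpin libraries, with counting intervals clear of 1 in each. The ratio to shNC was 0.891 in sh1089-1 (0.863 to 0.919) and 1.14 in sh1089-2 (1.11 to 1.18). The log2 difference from shNC in sh1089-2, 0.19, became 0.26 after rescaling to TPM, beyond the counting interval. The difference of log2(FPKM + 1) between sh1089-2 and sh1089-1 was 0.36. It rests on 1 library a group and was not tested.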

How the results depend on the processing

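Of the counts of genes called, 14 of 64 recomputed under the alternatives moved by more than 1.5 times, and a count of 0 cannot fall under a stricter choice. All 72 recomputed medians stayed between the median lower and median upper counting bounds of the genes in each list. Those bounds are of single genes and are no measure of the precision of a median. Signs could change within them: the further p53 targets in sh1089-2 went from −0.06 to 0.01 under TPM. At a 2-fold threshold, 0 of the 32 genes were lower in sh1089-1, 0 in sh1089-2 and 0 in both, against 1.51%, 1.61% and 0.741% of all genes. There, 0 were higher in sh1089-2 than in sh1089-1, against 0.839%. At a log2 difference of 0.32, 11 were lower and 3 higher in sh1089-1, against 18% and 15% of all genes. In sh1089-2, 11 were lower and 2 higher, against 17.6% and 13.2%. At that difference, 8 were lower and 1 (POLH) higher in both, against 9.92% and 8.15%. Also there, 3 were higher and 1 lower in sh1089-2 than in sh1089-1, against 9.45% and 10.1%. With a pseudocount of 0.1, 5 were lower in both, against 4.69% of all genes. SESN1 and ZMAT3 were added, as the smaller pseudocount shrinks low genes less. With a filter at a mean FPKM of 5, 0 were higher in sh1089-2 than in sh1089-1, because TP53INP1 lies below it. Rescaling to TPM and centring left BBC3, PLK3 and DRAM1 lower in both. Of 372 recomputed differences of single members, 2 moved beyond their counting intervals, CDKN1A and PLK2 in sh1089-2 against shNC under TPM. The median between the hairpin lines, −0.01, became 0.04 under TPM. No paired analysis was possible because each group is 1 library. Depth limits TIGAR, SPATA18 and SESN1, which rest on 98 to 180 reads in all.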
